A study of Mus musculus with 2 samples.

Results

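The sodium-potassium pump genes described here are 6 of the 55536 annotated genes: the beta subunit genes Atp1b1, Atp1b2 and Atp1b3, and the FXYD genes Fxyd1, Fxyd6 and Fxyd7. They were taken by gene symbol from a list of subunits and regulators of 1 pump, with no threshold on a measured value. The study sequenced total RNA of cortex, taken from the left hemisphere of 2 male mice of the hybrid B6CASTF1/J (C57BL/6J and CAST/EiJ parents) aged 10 days. The mice came from The Jackson Laboratory, each gave 1 library made from 300 ng of RNA with ERCC spike-ins (synthetic control RNAs), and no treatment or transgene is named. The labels number the animals and the biological replicates separately but give both 1 donor identifier. Both libraries form 1 group, so nothing was compared between conditions and no p-value is given.

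The pump, a Na,K-ATPase of the cell membrane, uses ATP to move sodium out of the cell and potassium in, and so restores the ion gradients that neurons spend when they fire. Its alpha subunit is the catalytic part, while the glycosylated beta subunit is needed for folding, for transport to the membrane and for potassium binding. Small single-span FXYD proteins bind the pump and tune its affinity for ions. In brain the beta1 protein of Atp1b1 is best known from neurons, the beta2 protein of Atp1b2 from glia, where it was first described as an adhesion molecule, and the FXYD proteins from distinct cell types.

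The genes lie on 4 chromosomes in the mouse genome mm10. Atp1b1 (ENSMUSG00000026576.12) spans chr1:164437109-164458355 on the minus strand, and Atp1b2 (ENSMUSG00000041329.13) spans chr11:69599736-69605942 on the minus strand. Atp1b3 (ENSMUSG00000032412.8) spans chr9:96332655-96364442 on the minus strand, and Fxyd6 (ENSMUSG00000066705.7) spans chr9:45370185-45396159 on the plus strand. Fxyd7 (ENSMUSG00000036578.7, chr7:31042513-31051467) and Fxyd1 (ENSMUSG00000036570.14, chr7:31051678-31057199) follow each other on the minus strand, with 210 bases between the annotated genes.

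The 3 FXYD genes each code for the motif that names the family, though with different codons, and the stretch around it is shown because it is the part by which the genes are recognised as relatives. Each line gives 20 codons of the coding exons, 5′ to 3′ on the coding strand, from the GENCODE M21 transcripts, with the 4 FXYD codons in capitals. The spans are chr7:31053449-31054306 (minus strand) for Fxyd1-201, chr9:45390639-45390802 (plus strand) for Fxyd6-201 and chr7:31045002-31051359 (minus strand) for Fxyd7-201, and each span holds at least 1 intron that is left out.

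Fxyd1: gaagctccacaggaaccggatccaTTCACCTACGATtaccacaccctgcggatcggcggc
Fxyd6: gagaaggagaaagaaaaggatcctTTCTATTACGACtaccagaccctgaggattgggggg
Fxyd7: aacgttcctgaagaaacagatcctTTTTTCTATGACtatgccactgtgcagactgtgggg

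Of these 60 positions, 27 hold the same base in all 3 genes, with 6 of the 12 capital positions, 10 of the 24 before them and 11 of the 24 after them. The stretches were found and lined up by their FXYD codons, which fix those 6 positions in advance. That count is thus no measure of likeness. Identity was taken over the aligned bases of the coding sequences, with gaps left out, and no unrelated genes were aligned for comparison. It was 65.1% between Fxyd1 and Fxyd6, 62.8% between Fxyd6 and Fxyd7 and 61.6% between Fxyd1 and Fxyd7. Among the beta genes it was 64.0% between Atp1b1 and Atp1b2, 60.8% between Atp1b1 and Atp1b3 and 60.5% between Atp1b2 and Atp1b3. The beta genes encode 304 codons (Atp1b1-201), 290 codons (Atp1b2-201) and 278 codons (Atp1b3-201), and the FXYD genes 94 codons (Fxyd6-201), 92 codons (Fxyd1-201) and 80 codons (Fxyd7-201).

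Replicate 2 was sequenced to 30218308 expected counts, replicate 1 to 31254528, and ERCC records took 0.354% and 0.359%. Levels are in TPM, reads per transcript length brought to an equal total for both libraries, and the authors deposited 2 quantifications of the same reads. The first is used where none is named. A gene counts as detected when neither library is below 1 TPM. Markers checked the tissue: all 5 neuronal markers were detected, with a summed 1670 TPM in replicate 2 and 1712 TPM in replicate 1, and so were all 6 astrocyte markers, with 416 and 390 TPM. Of 8 choroid plexus markers only Ttr was detected, and all 8 were higher in replicate 2, with sums of 316 TPM in replicate 2 and 9.81 TPM in replicate 1. The 3 erythroid markers were all detected and all lower in replicate 2, with sums of 557 TPM in replicate 2 and 805 TPM in replicate 1.

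All 6 pump genes were detected in both libraries, where 59.6% of the 22015 protein-coding genes outside the mitochondrial genome were. Their median level was 156 TPM, and that of the 13111 detected protein-coding genes was 16.3 TPM. The SD over the libraries was a median of 2.94% of the mean for the pump genes and 4.73% for the detected genes. These sets were not matched by level, and counting error takes a smaller part of the mean at higher counts. In bulk tissue, fewer cells of a type and less RNA per cell cannot be told apart, so these levels are those of the whole sample.

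Among the beta genes, Atp1b1 was by far the most abundant. It had 703.88 TPM in replicate 2 and 701.72 TPM in replicate 1, a mean of 702.8 ± 1.53 TPM (SD, n = 2), from 31740 and 33438 expected counts. This made it number 34 by mean level among protein-coding genes. Atp1b2 had 187.47 TPM in replicate 2 and 194.17 TPM in replicate 1, a mean of 190.8 ± 4.74 TPM and rank 386. Atp1b3, the broadly expressed beta3 subunit gene, had 39.53 TPM in replicate 2 and 44.96 TPM in replicate 1, a mean of 42.2 ± 3.84 TPM and rank 2817. The libraries of each beta gene lay far inside the distance to the next one, so that no values of neighbouring beta genes overlapped.

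Per length, Atp1b1 exceeded Atp1b2 3.75-fold in replicate 2 and 3.61-fold in replicate 1. It exceeded Atp1b3 17.8-fold in replicate 2 and 15.6-fold in replicate 1. Of the summed TPM of the beta genes, Atp1b1 held 75.6% in replicate 2 and 74.6% in replicate 1 (75.1 ± 0.73%, n = 2). Atp1b2 held 20.1% and 20.6% (20.4 ± 0.35%), and Atp1b3 held 4.25% and 4.78% (4.51 ± 0.38%). Close to 3 of every 4 beta transcripts by TPM were thus Atp1b1, and the SDs of the shares were below 1 percentage point. The remaining beta gene, Atp1b4, which is known from muscle, was not detected. It had 0 counts in replicate 2, which allows a level of up to 0.0372 TPM by counting error, and 1 count in replicate 1.

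Among the FXYD genes, Fxyd7 and Fxyd6 stood far above Fxyd1. Fxyd7, known as a brain FXYD protein of neurons, had 176.3 TPM in replicate 2 and 174.9 TPM in replicate 1 (175.6 ± 0.99 TPM, n = 2, rank 440). Fxyd6, also called phosphohippolin, had 138.99 TPM in replicate 2 and 132.48 TPM in replicate 1 (135.7 ± 4.60 TPM, rank 634). Fxyd1, or phospholemman, best known from heart and muscle and in brain from the choroid plexus, had 18.04 TPM in replicate 2 and 16.54 TPM in replicate 1 (17.3 ± 1.06 TPM, rank 6307). Fxyd1 rested on 146 and 115 expected counts, the fewest of the 6 genes, and lay just above the median of the detected genes.

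Fxyd7 exceeded Fxyd6 1.27-fold in replicate 2 and 1.32-fold in replicate 1, and Fxyd6 exceeded Fxyd1 7.70-fold and 8.01-fold. Shares were taken of the summed TPM of all FXYD genes, with Fxyd2 to Fxyd5 included. Of this sum, Fxyd7 held 48.5% in replicate 2 and 50.7% in replicate 1 (49.6 ± 1.59%, n = 2). Fxyd6 held 38.2% and 38.4% (38.3 ± 0.15%), and Fxyd1 held 4.96% and 4.80% (4.88 ± 0.12%). The order of Fxyd6 and Fxyd7 is one of levels per length. By expected counts, which grow with transcript length, Fxyd6 held 64.6 ± 0.11% of the family and Fxyd7 28.1 ± 0.78%, because the annotated Fxyd6 transcripts are longer (1788 bases in Fxyd6-201, 693 bases in Fxyd7-201).

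**Figure D1:**
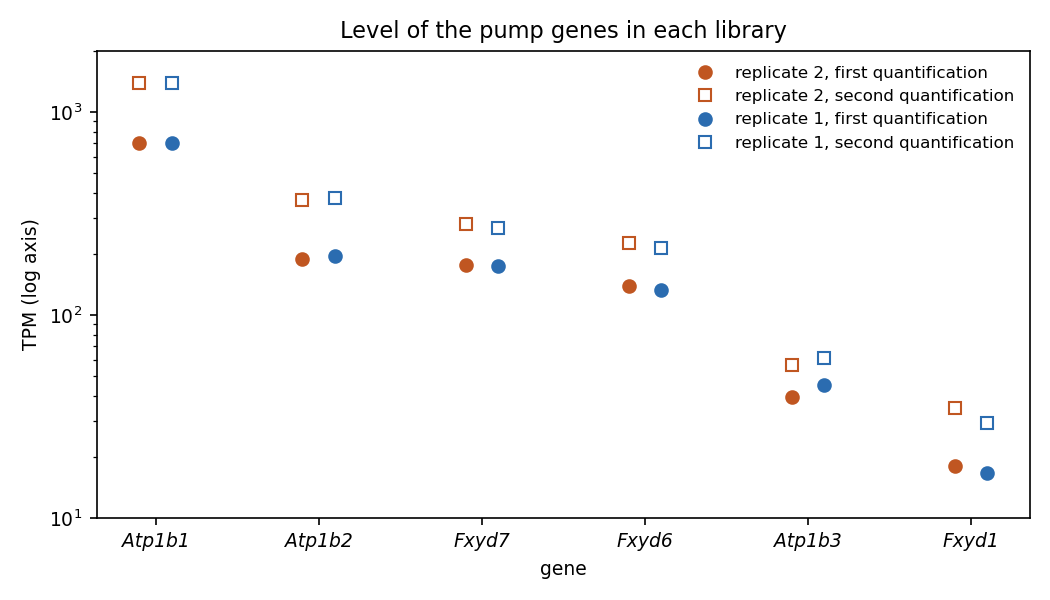
Level of each pump gene in TPM (log axis) in each library, with replicate 2 left of replicate 1, filled circles for the first quantification and open squares for the second. The order of the 6 genes is the same in both libraries and both quantifications, from Atp1b1 at 702.8 TPM to Fxyd1 at 17.3 TPM in the first.

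In order of level the genes ran Atp1b1, Atp1b2, Fxyd7, Fxyd6, Atp1b3 and Fxyd1, and the values of no neighbouring pair overlapped between the libraries. The closest pair was Atp1b2 and Fxyd7, with a ratio of 1.06 in replicate 2 and 1.11 in replicate 1. The second quantification gave the same order, with 1389 ± 4.07 TPM for Atp1b1, 373 ± 4.23 TPM for Atp1b2, 275 ± 7.83 TPM for Fxyd7, 219.7 ± 7.91 TPM for Fxyd6, 58.9 ± 3.47 TPM for Atp1b3 and 32.0 ± 4.02 TPM for Fxyd1. Levels there were higher for all 6 genes, and protein-coding genes as a whole took 79.3% of its TPM in replicate 2 and 78.0% in replicate 1, where they took 49.0% and 48.0% in the first quantification. The median ratio of the second to the first over detected protein-coding genes was 1.53. Atp1b1 (1.98), Atp1b2 (1.95) and Fxyd1 (1.85) lay above that median, Fxyd6 (1.62) and Fxyd7 (1.56) near it and Atp1b3 (1.39) below it.

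The authors' tables also give posterior bounds for each level, at a level of confidence that neither the labels nor the headers state. For Atp1b1 they ran from 667 to 695 TPM in replicate 2 and from 667 to 694 TPM in replicate 1. The deposited TPM lay above its own upper bound in both libraries for 2 of the 6 genes, Atp1b1 and Fxyd6, where it did so for 3.38% of the 13111 detected genes. Such bounds narrow relative to the level as counts grow, and that share was not matched for counts. For Fxyd1 the bounds were the widest relative to the level, from 17.3 to 24.9 TPM in replicate 2 and from 14.2 to 22.3 TPM in replicate 1, and those of both libraries overlapped.

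**Figure D2:**
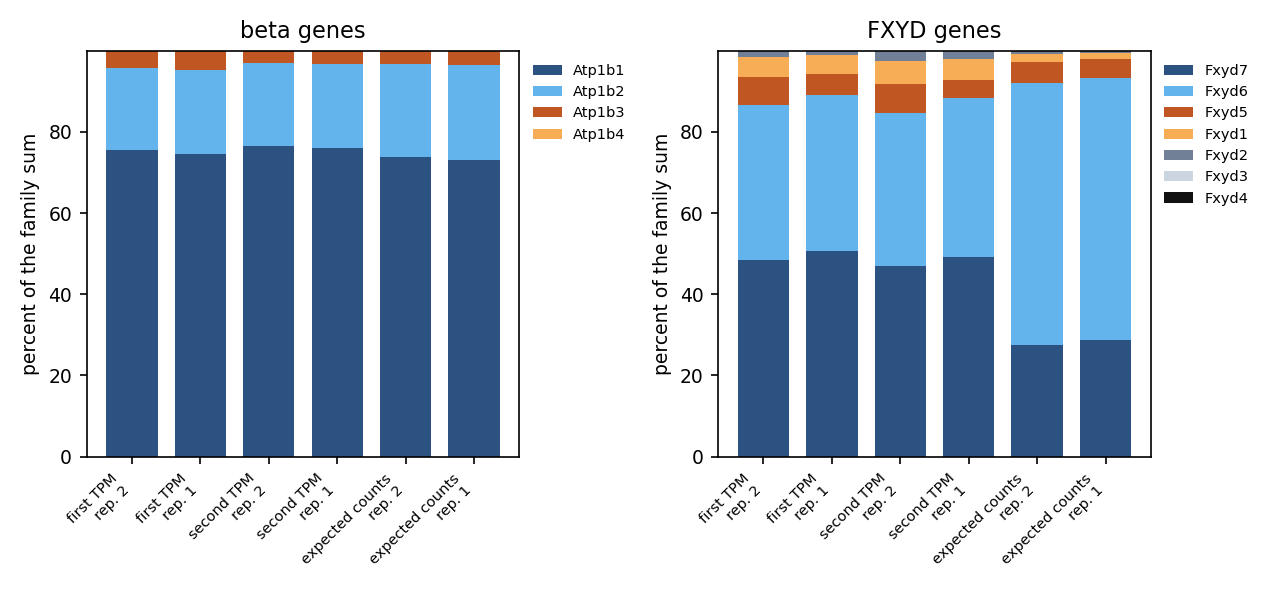
Share of each gene in the sum of all beta genes (left) and of all FXYD genes (right), in percent, for each library. Replicate 2 is left of replicate 1, by first TPM, second TPM and expected counts. Atp1b1 holds 73.4 to 76.3% of the beta sum on the mean of each quantity, while Fxyd7 holds 49.6% of the FXYD sum by TPM and 28.1% by expected counts.

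The subunit families were also set against each other. The beta genes summed to 930.9 TPM in replicate 2 and 940.9 TPM in replicate 1, and the 4 genes of the catalytic alpha subunit to 1563 and 1512 TPM. The alpha to beta ratio was 1.68 in replicate 2 and 1.61 in replicate 1 (1.64 ± 0.051, n = 2). The second quantification put it lower, at 1.36 and 1.27, outside the range of the first. All FXYD genes, with Fxyd2 to Fxyd5 included, summed to 363.7 TPM in replicate 2 and 344.7 TPM in replicate 1. This was 0.391 and 0.366 of the beta sum. These are ratios of RNA and not of protein, in which alpha and beta subunits pair one to one.

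Each gene has several annotated transcripts, 34 in all, and the 20 that held 5% or more of their gene on the mean of both libraries in either quantification are named. The transcript with the largest share was the same in both quantifications for 5 of the 6 genes, where this was so for 76.2% of the 11837 detected protein-coding genes with at least 2 annotated transcripts. The largest share reached 50% for 5 of the 6 genes, where it did so for 68.8% of those genes. The exception in both counts was Fxyd1.

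Atp1b1 was read mainly as its full-length form. Atp1b1-201, with 6 exons and all 304 codons, held 90.3% of the gene's TPM in replicate 2 and 91.9% in replicate 1. Atp1b1-203 held 6.94% and 6.69%. In the second quantification the shares were 64.6% and 65.2% for Atp1b1-201 and 33.8% in both libraries for Atp1b1-203. The gap of 26.2 percentage points between the mean shares of Atp1b1-201 compares with a median gap of 9.62 points for the top transcripts of those 11837 genes, of which 25.3% had a gap of 20 points or more. Atp1b1-203 is a short model of 628 bases, annotated with an open end, and 160 of its bases lie in no other transcript of the gene. Its reads differed less than its TPM: 2081 and 2246 estimated counts in the second quantification, and 509 and 510 in the first, beside at least 31066 for Atp1b1-201 in either library.

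Atp1b1-203 begins upstream of the second coding exon, and its annotated start is an ATG inside the frame of the full-length form. The stretch is shown with that ATG in capitals, at codon 57 of the 304 of Atp1b1-201 (chr1:164453514-164453576, minus strand, coding exon).

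Atp1b1-201: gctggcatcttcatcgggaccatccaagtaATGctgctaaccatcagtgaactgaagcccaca

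The 56 codons before this ATG, which in the full-length form start with the cytoplasmic end of the protein, are thus absent from the coding part annotated for Atp1b1-203. All 397 coding bases of Atp1b1-203 are also coding bases of Atp1b1-201. These are annotated models, and whether the short form is made as an RNA of its own was not tested.

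Atp1b2 also had 1 main form, but more of its TPM lay in noncoding models. Atp1b2-201, with 7 exons and 290 codons, held 86.8% in replicate 2 and 86.0% in replicate 1, against 54.5% and 55.8% in the second quantification. The processed transcript Atp1b2-204 held 5.40% and 5.77% in the first and 29.4% and 26.4% in the second. The processed transcript Atp1b2-202, which keeps an intron between coding exons, held 7.19% and 7.12% in the first and 8.81% and 7.56% in the second. Atp1b2-203, with 136 annotated codons and an open end, was listed at 0 in the first and held 7.07% and 9.73% in the second. Most of these models have few bases of their own. Of the 2842 bases of Atp1b2-201, 5 lie in no other transcript of the gene, as do 60 bases of Atp1b2-204 and 0 bases of Atp1b2-203. Atp1b2-202 has 706 such bases. These counts set a model against all others at once, and a pair can differ by more. Atp1b2-204, for example, has 711 bases in all.

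**Figure D3:**
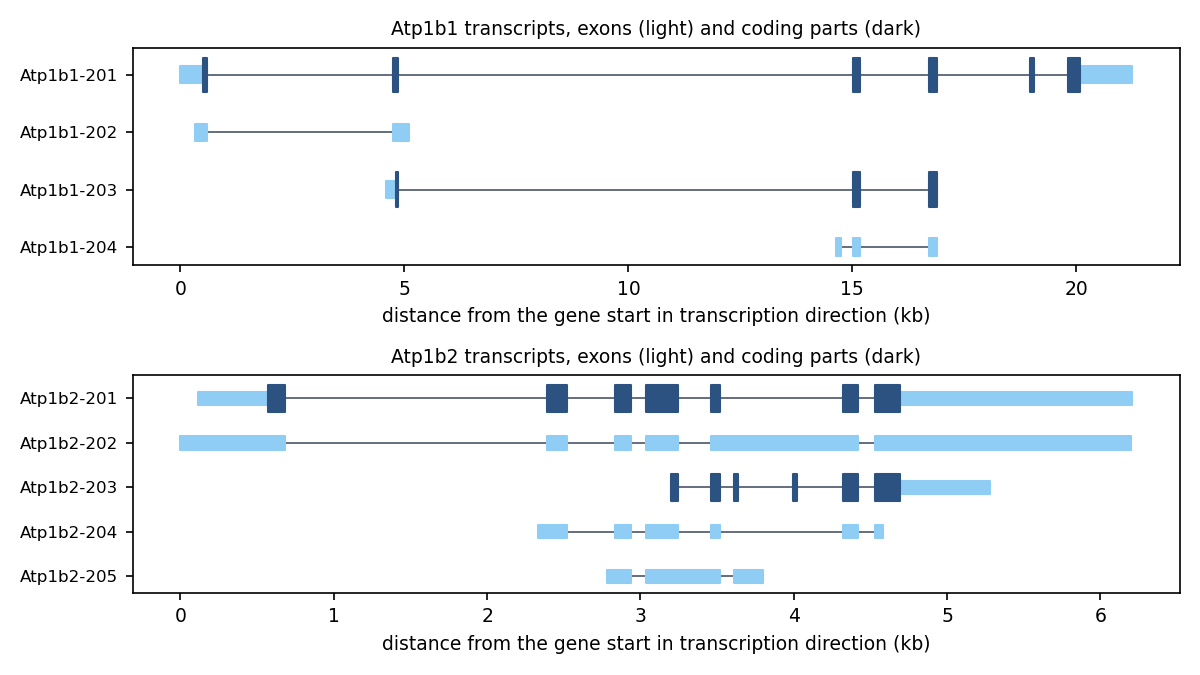
Annotated transcripts of Atp1b1 (top) and Atp1b2 (bottom), drawn to scale in kb from the gene start in the direction of transcription, with exons in light and coding parts in dark blue. Atp1b1-203 starts before the second coding exon, and the models of Atp1b2 overlap so far that Atp1b2-201 has 5 bases of its own.

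Protein-coding transcripts held 97.9 ± 0.95% of Atp1b1 (n = 2), 94.8 ± 0.80% of Atp1b3, 98.9 ± 0.098% of Fxyd6 and 100% of Fxyd7. They held 86.4 ± 0.53% of Atp1b2 in the first quantification and 63.5 ± 2.78% in the second, and the median over the 11837 genes in the first was 86.7%. Counting coding transcripts alone turned the order of the closest pair. Atp1b2 then had 162.6 TPM in replicate 2 and 167.0 TPM in replicate 1, and Fxyd7 had 176.3 and 174.9 TPM. The second quantification gave the same turn, with 227.5 and 245.9 TPM for Atp1b2 and 280.2 and 269.1 TPM for Fxyd7. This count was made after the transcript shares had been seen.

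Atp1b3 was read almost wholly as Atp1b3-201, at 95.4% in replicate 2 and 94.3% in replicate 1, and at 100% in both libraries of the second quantification. It is the beta gene whose transcript mix moved least between the quantifications, with a gap of 5.19 points.

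Fxyd6 was split between its coding forms. Fxyd6-203 held 58.8% in replicate 2 and 53.0% in replicate 1, and Fxyd6-201 held 40.0% and 46.0%. The second quantification gave 58.1% and 53.8% for Fxyd6-203 and 40.8% and 45.4% for Fxyd6-201, a gap of 0.0497 points for the mean of Fxyd6-203. In both quantifications Fxyd6-203 was the larger in each library, and the forms lay closer together in replicate 1. The forms differ by an acceptor choice that adds or leaves out 3 bases at chr9:45390634-45390636 (plus strand), in capitals here, and these touch codon 19 of the longer form. Both stretches come from coding exons within chr9:45390018-45390666, with an intron left out.

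Fxyd6-201: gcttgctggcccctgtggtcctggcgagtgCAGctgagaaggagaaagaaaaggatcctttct
Fxyd6-203: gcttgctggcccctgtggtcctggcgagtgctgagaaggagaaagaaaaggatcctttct

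The choice leaves 94 codons in Fxyd6-201 and 93 in Fxyd6-203, and it lies ahead of the FXYD codons. Of their bases, 3 occur in no other transcript in Fxyd6-201 and 4 in Fxyd6-203, so the split rests on the reads that cross 1 junction and the transcript ends.

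Fxyd7 had 2 coding forms as well. Fxyd7-201 held 69.3% in replicate 2 and 66.3% in replicate 1, and Fxyd7-202 held 30.7% and 33.7%. In the second quantification Fxyd7-201 held 100% in replicate 2 and 87.2% in replicate 1, a gap between the mean shares of 25.8 points. They differ by 9 coding bases at chr7:31044708-31044716 (minus strand), in capitals here, beginning within codon 57. Both stretches come from coding exons within chr7:31044582-31044746, with an intron left out.

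Fxyd7-201: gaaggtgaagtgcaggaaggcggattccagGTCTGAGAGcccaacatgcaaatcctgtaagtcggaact
Fxyd7-202: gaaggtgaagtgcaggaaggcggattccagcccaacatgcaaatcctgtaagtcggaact

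The choice gives 80 codons in Fxyd7-201 and 77 in Fxyd7-202, and lies after the FXYD codons, in the part that codes for the cytoplasmic tail. With its longer 5′ end, Fxyd7-201 has 73 bases of its own, these 9 included, and Fxyd7-202 has 0. Both quantifications put Fxyd7-201 first, but how much of the gene the shorter form holds differed between them by more than between the libraries.

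**Figure D4:**
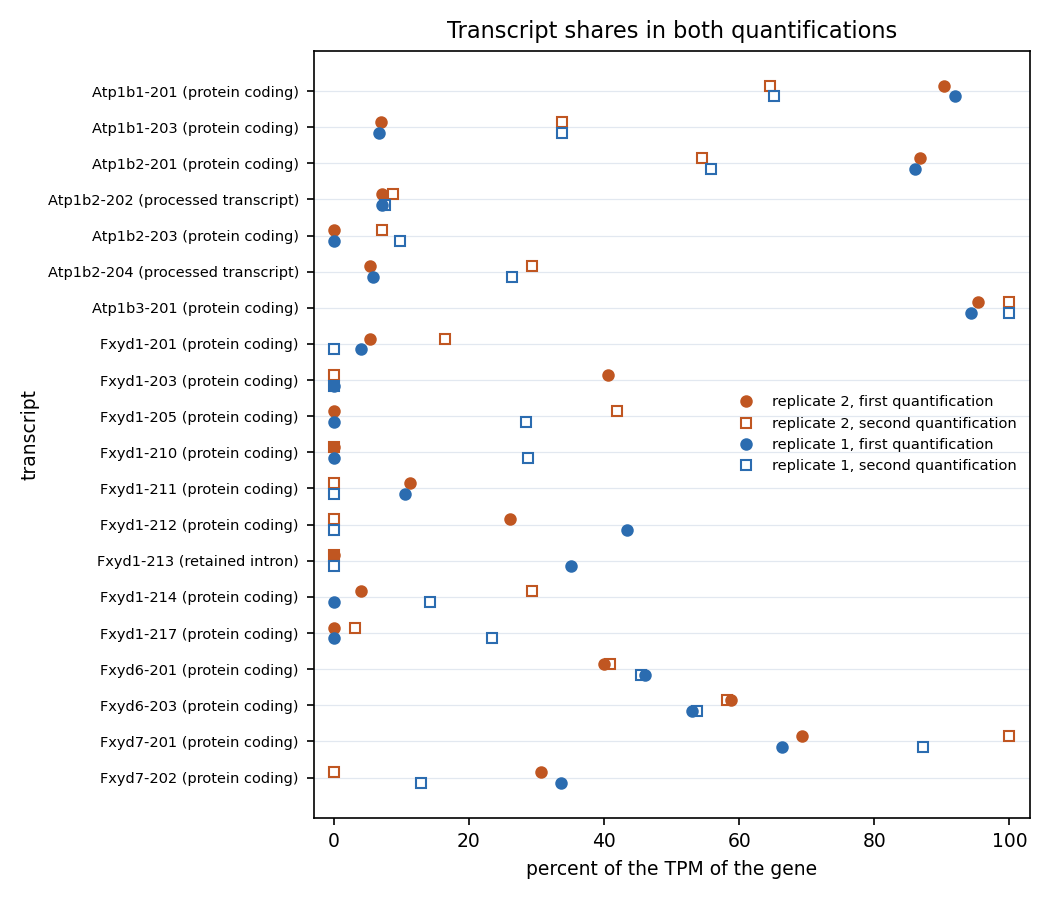
Percent of each gene's TPM held by the 20 named transcripts, with circles for the first and squares for the second quantification, and replicate 2 above replicate 1. The Fxyd6 forms coincide in both quantifications, while Atp1b1-203, Atp1b2-204 and the Fxyd1 forms do not.

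Fxyd1 could not be resolved into forms. It has 17 annotated transcripts, 12 of them coding and 7 of them with no base of their own, spread over 146 expected counts in replicate 2 and 115 in replicate 1. Fxyd1-212 had the largest mean share in the first quantification, 26.1% in replicate 2 and 43.5% in replicate 1, and was listed at or near 0 in the second. Fxyd1-203 held 40.5% in replicate 2 and was listed at 0 in replicate 1, and the retained intron model Fxyd1-213 was listed at 0 in replicate 2 and held 35.1% in replicate 1. In the second quantification Fxyd1-205 led with 41.9% and 28.5%, followed by Fxyd1-214 with 29.4% and 14.3%. The others named were Fxyd1-201, Fxyd1-210, Fxyd1-211 and Fxyd1-217, each between 0% and 28.8%. Most of the coding models are annotated with 92 codons. The coding share of the gene was 90.5% in replicate 2 and 63.1% in replicate 1 in the first quantification, and 92.8% and 96.3% in the second.

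Reads that also match other genes could enter some of these values. Of the words of 31 bases in the transcripts of Atp1b3, 16.2% also occur on the same strand in other genes, which are Gm1848, a processed pseudogene on chromosome X, and Zcwpw1. Gm1848 had 0 TPM in replicate 2 and 0.23 TPM in replicate 1, and Zcwpw1 had 2.53 and 2.65 TPM. The level of Atp1b3 is uncertain to the extent that such reads were divided. For Atp1b2 and Fxyd7 no such word was shared, for Fxyd1 1 word was and for Fxyd6 0.268% of words were. Atp1b1 shared none on its own strand, but its 3′ end overlaps the end of Nme7 on the opposite strand over 617 bases (chr1:164437109-164437725), and 16.9% of its words match Nme7 in reverse. Nme7 had 9.65 TPM in replicate 2 and 11.55 TPM in replicate 1. The labels name a spike-in profile for stranded libraries, but how strand was treated in the counting is not stated there.

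The libraries were then compared gene by gene by the log2 ratio of TPM + 0.1, replicate 2 over replicate 1, among genes that averaged at least 100 expected counts. No pump gene lay past 0.5 in either direction, where 1.49% of 11982 protein-coding genes lay past it as higher and 0.576% as lower in replicate 2. The log2 ratios were 0.00 for Atp1b1, -0.05 for Atp1b2, -0.19 for Atp1b3, 0.12 for Fxyd1, 0.07 for Fxyd6 and 0.01 for Fxyd7. Their median absolute size was 0.060, and that of all genes tested was 0.090, around a median ratio of 0.04 with the central 90% between -0.20 and 0.32. All 6 genes lay inside that span. Atp1b1, Atp1b2, Atp1b3 and Fxyd7 lay below the median of all genes and Fxyd1 and Fxyd6 above it, and in the second quantification Fxyd7 lay above it too.

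On expected counts scaled to the same total (CPM), the 95% interval of the log2 ratio left out 0 for 5 of the 6 genes, where it did so for 24.3% of the 11982 genes tested. The interval narrows as counts grow, and the share over all genes includes genes with far fewer counts than Atp1b1. It held 0 for Fxyd7, at 0.01 (-0.08 to 0.10). Atp1b1 had a ratio of -0.03 (-0.05 to -0.00434), and Fxyd6 had 0.06 (0.000144 to 0.12), so both intervals ended close to 0. Intervals were made for this scaling alone. Over the scalings and quantifications tried, the ratio ran from -0.07 to 0.01 for Atp1b1 and from 0.02 to 0.08 for Fxyd6. The count of 5 thus depends on the scaling. The ratio was -0.18 (-0.28 to -0.08) for Atp1b3, the gene with the lowest ratio, and 0.38 (0.03 to 0.76) for Fxyd1, the gene with the highest. The intervals are Clopper-Pearson intervals on the counts of 2 libraries and hold no spread between animals. The ratio of Fxyd1 was 0.12 by TPM and 0.38 by CPM, and the effective length assigned to the gene was 411 bases in replicate 2 and 339 bases in replicate 1. Fxyd1 was also the gene among the 6 best known from choroid plexus. The 8 choroid plexus markers, all higher in replicate 2, included Ttr at 303.5 TPM in replicate 2 and 7.35 TPM in replicate 1, and their part in the result was not tested.

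**Figure D5:**
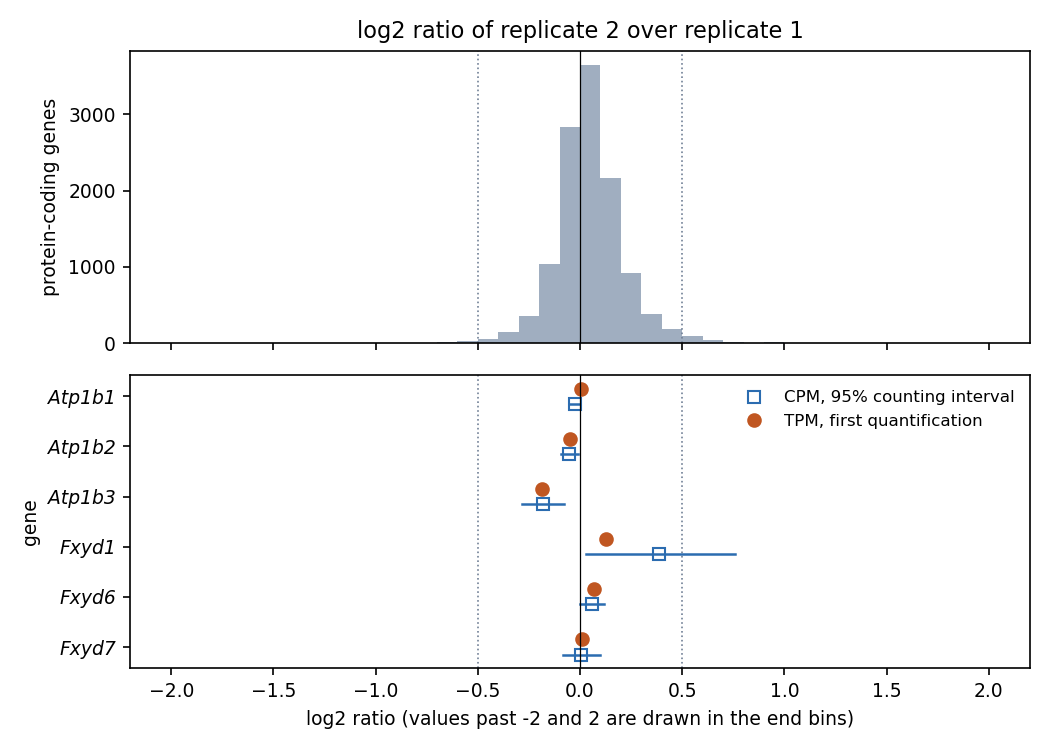
Log2 ratio of replicate 2 over replicate 1 for all 11982 protein-coding genes tested (top, TPM) and for the 6 pump genes (bottom; circles are TPM, squares are CPM with 95% counting intervals). Dotted lines stand at -0.5 and 0.5, and no pump gene lies past them, though the interval of Fxyd1 reaches 0.76.

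Of 15 other genes tied to the pump, 10 were detected in both libraries, where 59.6% of the 22015 protein-coding genes were. Fxyd5, the gene of dysadherin, which lies 31 bases from Fxyd7 on chromosome 7, had 24.96 TPM in replicate 2 and 17.33 TPM in replicate 1, and held 6.86% and 5.03% of the FXYD sum. It had the larger value in replicate 2, with a log2 ratio of 0.52 by TPM and 0.23 by CPM, and its effective length was 738 bases in replicate 2 and 897 bases in replicate 1. Fxyd2, the gamma subunit gene of the kidney pump, lies 3509 bases from Fxyd6 on chromosome 9 and had 5.17 TPM in replicate 2 and 3.36 TPM in replicate 1, from 57 and 37 expected counts. Fxyd3 and Fxyd4 were not detected, with at most 1 count in a library.

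All 4 Nkain genes, which code for membrane proteins that interact with the pump, were detected. Nkain1 had 31.77 TPM in replicate 2 and 30.49 TPM in replicate 1, Nkain2 22.52 and 21.14 TPM, Nkain4 20.23 and 18.59 TPM and Nkain3 9.35 and 9.08 TPM. The astrocyte membrane genes Mlc1 and Hepacam, whose proteins act together at astrocyte contacts, had 44.38 and 41.87 TPM (Mlc1) and 23.83 and 21.32 TPM (Hepacam) in replicates 2 and 1. Agrn, the gene of the matrix protein agrin, had 119.09 TPM in replicate 2 and 110.58 TPM in replicate 1, the highest of these partners and below Fxyd6.

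The proton-potassium pumps, relatives of the sodium-potassium pump best known from stomach and colon, were near or below the detection level. Atp4a had 1.34 TPM in replicate 2 and 1.15 TPM in replicate 1 from 30 and 31 expected counts. Atp12a had 0.18 and 0.10 TPM and was not detected. Atp4b had 0 counts in both libraries, which allows up to 0.161 TPM in replicate 2 and 0.155 TPM in replicate 1 by counting error.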

How the data were processed

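Total RNA was measured in left cortex of 2 male mice, with 1 library each, as replicates 2 and 1 of 1 group. The authors deposited 3 tables per library, on mm10 with GENCODE M21, per the deposited description of the files. The first quantification, from transcriptome alignments, holds expected counts, TPM over all records, the percent of each gene held by a transcript, and posterior mean TPM with bounds, which are signal values with no stated level, per the file headers. The second, from reads with an index, holds estimated counts and TPM per transcript, deposited by the authors and summed here by gene. Columns are laid out as RSEM and kallisto write them, but no label or header names a program, a version or the treatment of strand in counting. The reference genome is that of 1 parent strain, and the alleles were not counted apart.

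Genes were taken by symbol. Detection was set at 1 TPM in both libraries, the ratio at 0.1 added TPM, a mean expected count of 100 and a log2 size of 0.5. The members and gene lists were chosen with earlier results of these data known. The rule for named genes covered every member, transcripts at 5% or more and other pump genes at 1 TPM or more. The individual alpha subunit genes are not reported here and enter as a sum alone, which departs from that rule. With 2 libraries of 1 condition, no gene was ranked by likeness of its pattern to a member. Expected counts were rounded for intervals. CPM, TMM (edgeR 4.0.16), DESeq2 1.42.0 size factors and ERCC scaling served as alternatives (R 4.3.3), with no test. Python 3.11.15, pandas 2.3.3, scipy 1.17.1, biopython 1.88 and matplotlib 3.10.9 were used, and the ratio step was tested on simulated data. Coding identity is that of global alignments of 1 transcript per gene, with gaps left out. Words of 31 bases were compared with all GENCODE M21 transcripts. Depth was 30218308 (replicate 2) and 31254528 (replicate 1) expected counts. Intervals and limits for counts of 0 (3 counts) cover counting error only, since reads counted without molecular identifiers need not come from separate molecules.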

Additional observations from a re-analysis of the deposited data

How the results depend on the processing

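The summed level moved more between the quantifications than between the libraries. The summed level of the 6 pump genes was 1264 TPM, between 1264.2 and 1264.8 TPM with either library left out, 2346 TPM in the second quantification, 1228 TPM by posterior means, 2606 TPM when scaled over protein-coding genes and 1216 TPM over protein-coding transcripts alone, an alternative chosen after seeing the data. The share of Atp1b1 among the beta genes was 75.1%, between 74.6 and 75.6% with either library left out, 76.3% in the second quantification, 73.4% by expected counts and 77.1% over protein-coding transcripts alone. The share of Fxyd7 was 49.6%, between 48.5 and 50.7% with either library left out, and 28.1% by expected counts. The median rank was 537, between 530 and 544 with either library left out, and 548.5 in the second quantification. The counts of detected pump genes (6), of other pump genes (10, and 11 by posterior means), of genes past the library ratio (0) and of genes with a main transcript at 50% (5) stayed within 1.5 times under every alternative run for them. Of 192 alternative values, 57 were classed as moved, and 16 of the 20 named transcripts were classed so in the second quantification. Fxyd1-203 and Fxyd1-213 were not, though their mean shares went from 20.3% and 17.6% to 0%. Their SDs over the libraries, 28.7 and 24.8 percentage points, were larger than those shifts. Levels, shares and ranks were held against the SD of the libraries. With n = 2, leaving out a library cannot shift a mean by that much, so those values were bound to count as unmoved. The figure of 57 in 192 therefore understates how often the other alternatives moved. Among those, scaling over protein-coding genes raised every level by a similar factor, so its values were bound to count as moved. The figure thus holds outcomes fixed in advance in both directions. Library ratios have no such SD and were not judged by it. Fxyd1, at 0.12 by TPM and 0.38 by CPM, counted as unmoved. The cause of the moves was not tested.

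Over the scalings and quantifications tried, which shifted the median log2 ratio of all genes to between -0.02 and 0.04, the log2 ratio of the libraries ran from -0.07 to 0.01 for Atp1b1, from -0.03 to 0.06 for Fxyd7, from -0.09 to -0.02 for Atp1b2, from -0.22 to -0.12 for Atp1b3, from 0.12 to 0.41 for Fxyd1 and from 0.02 to 0.08 for Fxyd6. Set against that median, a comparison added after seeing the data, Atp1b1, Atp1b2 and Atp1b3 lay below it in 7 of 7 settings, Fxyd7 in 6 and Fxyd1 and Fxyd6 in 0. The settings are not separate checks. CPM, TMM, DESeq2 and ERCC scaling each change a library by 1 factor, which shifts a gene and that median alike. Their agreement was thus fixed in advance, and the larger pseudocount changed the ratios little. Leaving out a library gives no ratio and was not run. No paired analysis was possible because there is only 1 group. With 2 libraries, an SD has 1 degree of freedom and rests on these samples alone. Fxyd1 has the fewest counts of the 6 genes and 7 of 17 models with no base of their own, and which of these limits its forms was not tested.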
